A study of Mus musculus with 8 samples.

Results

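The enzymes of glycolysis, of pyruvate metabolism and of the tricarboxylic acid (TCA) cycle were followed in mouse germinal vesicle (GV) oocytes, the fully grown oocytes whose nucleus has not yet broken down. The set held 37 genes, chosen by name, and a probe set was taken for a gene when its annotation named that gene alone. The genes counted as TCA genes include those of the cytosolic enzymes Aco1, Idh1 and Mdh1. The annotation gave such probe sets for 35 of the 37, out of 18194 genes named in this way. Gpi1 and Eno1 had none in the annotation used here. The 35 genes had 88 probe sets, of which 4 were control probe sets for Pcx.

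Total RNA was hybridised to 8 single-colour arrays, 15 µg of labelled cRNA on each. The 4 untreated arrays carried GV oocytes without treatment, and the 4 milrinone arrays carried GV oocytes held for 48 h in milrinone, a phosphodiesterase inhibitor that blocks meiotic resumption. The labels gave no strain, age or genotype and no group cultured without the drug, so drug, culture and elapsed time cannot be told apart. Nothing stated that replicates came from separate animals, so p-values reflect only how these samples vary, and that variation may be technical. Each array took a fixed amount of cRNA, so fewer cells of a type and less RNA per cell cannot be told apart.

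Glycolysis splits glucose into pyruvate in the cytosol. Lactate dehydrogenase interconverts pyruvate and lactate, the pyruvate dehydrogenase complex turns pyruvate into acetyl-CoA in mitochondria, and the TCA cycle oxidises acetyl-CoA to feed respiration. Mouse oocytes use glucose poorly and live largely on pyruvate, much of it supplied by the strongly glycolytic cumulus cells around them. Ldhb encodes the lactate dehydrogenase subunit that prevails in mouse oocytes, and Ldha the subunit typical of glycolytic cells, so the regions upstream of these genes and of Pgam1, the tested glycolytic member with the largest difference between groups, are shown first. They are the 250 bases before the most upstream RefSeq start of each gene on GRCm38.p6, printed 5′ to 3′ on the strand of the gene. Capitals mark ACGTG on either strand, a form of the core of the hypoxia response element bound by HIF factors, and overlapping matches count as 1 site. The form GCGTG was neither marked nor counted, and it occurs in the stretches of Ldhb and Pgam1.
Ldha, chr7:46845554-46845803, plus strand: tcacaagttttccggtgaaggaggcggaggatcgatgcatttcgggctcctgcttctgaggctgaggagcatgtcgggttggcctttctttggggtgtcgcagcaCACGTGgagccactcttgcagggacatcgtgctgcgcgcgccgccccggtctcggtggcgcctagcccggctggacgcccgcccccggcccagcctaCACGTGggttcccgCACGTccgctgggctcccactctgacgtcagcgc
Ldhb, chr6:142507958-142508207, minus strand: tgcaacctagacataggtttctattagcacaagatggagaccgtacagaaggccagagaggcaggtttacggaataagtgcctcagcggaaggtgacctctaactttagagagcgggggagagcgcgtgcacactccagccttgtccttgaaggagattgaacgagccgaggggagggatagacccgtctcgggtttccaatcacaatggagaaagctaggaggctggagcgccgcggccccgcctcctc
Pgam1, chr19:41911621-41911870, plus strand: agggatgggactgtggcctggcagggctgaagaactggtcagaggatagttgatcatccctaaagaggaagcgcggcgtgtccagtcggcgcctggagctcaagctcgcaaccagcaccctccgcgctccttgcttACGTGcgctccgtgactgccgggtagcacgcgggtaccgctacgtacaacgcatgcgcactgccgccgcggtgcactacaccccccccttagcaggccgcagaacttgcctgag
The stretch of Ldha held 3 ACGTG sites, that of Pgam1 held 1, and none was in that of Ldhb. Stretches with 3 or more sites made up 0.256% of all 32851 starts in the table, and 16.6% held at least 1. Of 36 members with a stretch in that table, 10 held a site, or 5 of 16 glycolytic, 2 of 6 pyruvate and 3 of 14 TCA genes. These matches describe the letters only.

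The cell content of the samples was checked with markers. All 12 probe sets of 10 oocyte genes were listed, that is had a value in the deposited table, on every array, with summed intensities of 115083 to 135697 in untreated and 116892 to 126376 in milrinone samples. Of 45 probe sets of granulosa, cumulus and theca genes, 23 to 34 were listed in untreated and 11 to 19 in milrinone samples. Their summed intensity ran from 21910 to 95932 in untreated samples, highest on untreated 1, and from 2861 to 4005 in milrinone samples. The brightest probe sets of Cyp11a1, Cyp17a1, Amhr2, Star and Nr5a1 were empty on all milrinone arrays, and Amh was empty on all 8. Star was also empty on untreated 2 and 4, and Nr5a1 on untreated 4. Other markers of this list did not follow. Nr5a2 had 1125 to 3223 in untreated and 836 to 1193 in milrinone samples. Kitl had 56.5 to 89.5 in untreated and 56.2 to 96.0 in milrinone samples where listed. Has2 and Ptgs2 were dim and had their highest values on milrinone arrays. Of 14 probe sets of stromal, endothelial and blood genes, 7 to 10 were listed in untreated and 3 to 4 in milrinone samples, with sums of 972 to 4511 and 473 to 574. Kdr, Cd68 and Adgre1 of this list had values on every array, and their groups overlapped. Kdr, the brightest of them, had 391 to 555 in untreated and 355 to 456 in milrinone samples. Over all probe sets listed in common, untreated 1 correlated with the others at a median of 0.930, where every other array had 0.966 to 0.980. For the Actb control probe sets, 3′ signal over 5′ signal was 6.87 to 13.1 in untreated and 11.6 to 20.4 in milrinone samples. For the Gapdh control probe sets it was 6.23 to 7.68 and 6.09 to 8.25. The part of other cell types and of RNA quality in the results below was not tested.

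No member differed between milrinone and untreated samples at an adjusted p under 0.05 (limma, over 16288 probe sets). Of 30 tested members, 0 passed in either direction, where 12 of 9454 tested genes passed, or 0.127%. A gene was tested when a probe set had values on 3 or more of the 4 arrays of both groups, and is described by its brightest such probe set. At an unadjusted p under 0.05 there were 6 members, against 9.85% of tested genes. The 5 lower in milrinone were Pgk1, Pgam1, Tpi1, Idh1 and Suclg1, against a background of 4.02%, and the 1 higher was Cs, against 5.83%. Their adjusted p ran from 0.472 to 0.513. In sign, 22 of 30 members were lower in milrinone, against 37.2% of tested genes. Centring on ribosomal protein genes left 13 members lower, beside 17.2% of tested genes, and centring on the median left 24, beside 42.7%. After quantile normalization 26 were lower, beside 73.2%. Both centrings move every gene on an array alike, so they leave the gap between members and background all but fixed. Quantile normalization could change that gap, and under it the members' median log2 difference was 0.20 below that of all tested genes. The median log2 difference, milrinone minus untreated on the log2(intensity + 16) scale, was -0.14 for the members and 0.07 for all tested genes. Without untreated 1 the members' median was -0.07, that of all tested genes was 0.03, and 0 members passed.

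**Figure D1:**
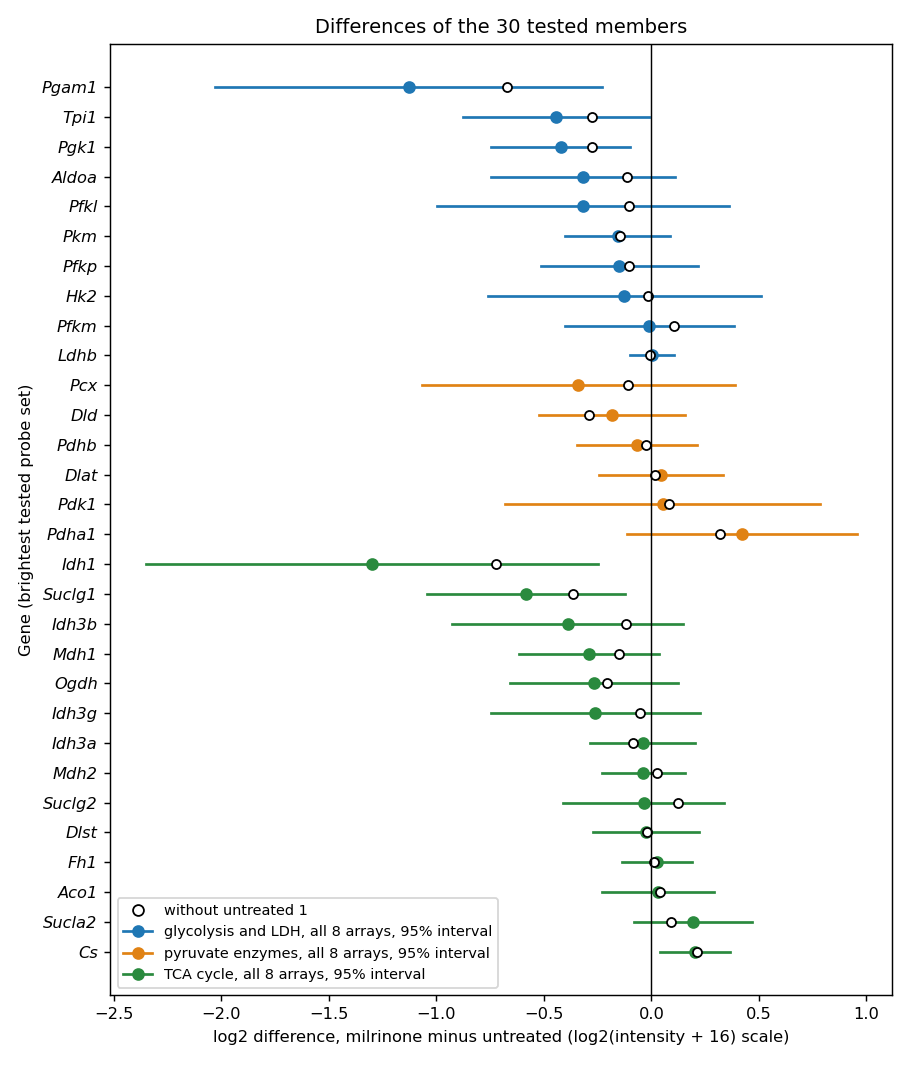
Log2 difference, milrinone minus untreated, of each of the 30 tested members by its brightest probe set, with the 95% interval from limma over all 8 arrays (filled) and the difference without untreated 1 (open). Idh1 and Pgam1 lie farthest below 0, at -1.30 and -1.13, and move to -0.72 and -0.67 without untreated 1.

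Untreated 1 was the highest of the 8 arrays for 15 of 30 tested members, against 17.4% of tested genes. These were 6 of 10 glycolytic, 1 of 6 pyruvate and 8 of 14 TCA genes. Over the other untreated arrays it stood 4.92 times higher for Idh1, 3.54 times for Pgam1, 2.15 times for Idh3b and 1.87 times for Suclg1. For Pdha1, Dld and Sucla2 untreated 1 was instead at 0.709, 0.737 and 0.749 of the mean of the other untreated arrays. The same array had the highest summed granulosa, cumulus and theca signal.

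Among the enzymes of the first glycolytic steps no difference passed the test. Hexokinases commit glucose to the pathway. Hk1 was dim and untested, with its brighter probe set listed at 118 and 53.5 on untreated 1 and 3 and at 26.7 and 36.0 on milrinone 2 and 3. The dimmer probe set of Hk1 was listed at 20.7 on untreated 4 and at 26.8 on milrinone 3. Hk2 had 165 to 330 in untreated and 146 to 353 in milrinone samples, and its difference was -0.13 (95% interval -0.76 to 0.51).

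Phosphofructokinase catalyses the main controlled step. Pfkp, its platelet isoform, had 772, 840, 701 and 532 on untreated 1 to 4 and 689, 664, 608 and 570 on milrinone 1 to 4, and the groups overlapped. Its difference was -0.15 (-0.51 to 0.22). The liver isoform Pfkl differed by -0.32 (SE 0.31) and the muscle isoform Pfkm by -0.01 (-0.40 to 0.38). Within arrays the log2 ratio of Pfkl to Pfkm was 0.11 to 1.08 in untreated and 0.29 to 0.67 in milrinone samples, and the groups overlapped.

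Aldolase cleaves the sugar phosphate into triose phosphates. Aldoa had 6382, 3072, 3616 and 4166 on untreated 1 to 4 and 2931 to 3650 in the milrinone samples. Untreated 1 was far above the rest, and untreated 4 was also above every milrinone array. The difference of Aldoa was -0.32, and -0.11 without untreated 1. All 5 tested probe sets of Aldoa pointed down, from -0.51 to -0.10, and without untreated 1 they ran from -0.39 to 0.02. In the probe set at -0.51, untreated 1 and 4 were alike, at 2507 and 2482. Aldoc, the brain isoform, was listed at 199, 51.9 and 31.8 on untreated 1, 3 and 4 and on no milrinone array.

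Triose phosphate isomerase, encoded by Tpi1, interconverts the products of aldolase. Tpi1 had 2824, 1477, 1713 and 2161 on untreated 1 to 4 and 1553, 1704, 1282 and 1314 on milrinone 1 to 4. The highest values were on untreated 1 and 4, and milrinone 1 and 2 lay inside the untreated range. The difference was -0.44 (SE 0.20, limma adjusted p = 0.513). Its other probe sets differed by -0.24 and -0.22.

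Pgk1 encodes phosphoglycerate kinase, which makes the first ATP of the pathway. It had 7441, 4775, 5123 and 5112 in untreated and 4782, 4342, 3740 and 3709 in milrinone samples, with untreated 2 a little below milrinone 1. The difference was -0.42 (SE 0.15, limma adjusted p = 0.472), and -0.28 without untreated 1 (adjusted p = 0.542). A second probe set had 2692, 1711, 1747 and 1558 against 1442, 1412, 1301 and 1329, and there the groups did not overlap. That probe set differed by -0.45, and the third by -0.29.

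Pgam1, the phosphoglycerate mutase gene, had 1445, 427, 522 and 277 in untreated and 184, 281, 244 and 272 in milrinone samples. Untreated 1 was far above the others, and untreated 4 lay between milrinone 4 and milrinone 2. The difference was -1.13 (SE 0.41, limma adjusted p = 0.480), and -0.67 without untreated 1 (adjusted p = 0.508). Without untreated 4 it was -1.44, with an adjusted p = 0.243, the lowest of the 30 members when a single array was left out.

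Eno2, the neuronal enolase, was listed on 1 array, untreated 4, at 25.1. Pkm, which encodes pyruvate kinase, the last step, had 4553, 4402, 4941 and 4041 in untreated and 4633, 4293, 3733 and 3481 in milrinone samples, and the groups overlapped. Its difference was -0.16 (-0.40 to 0.09).

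**Figure D2:**
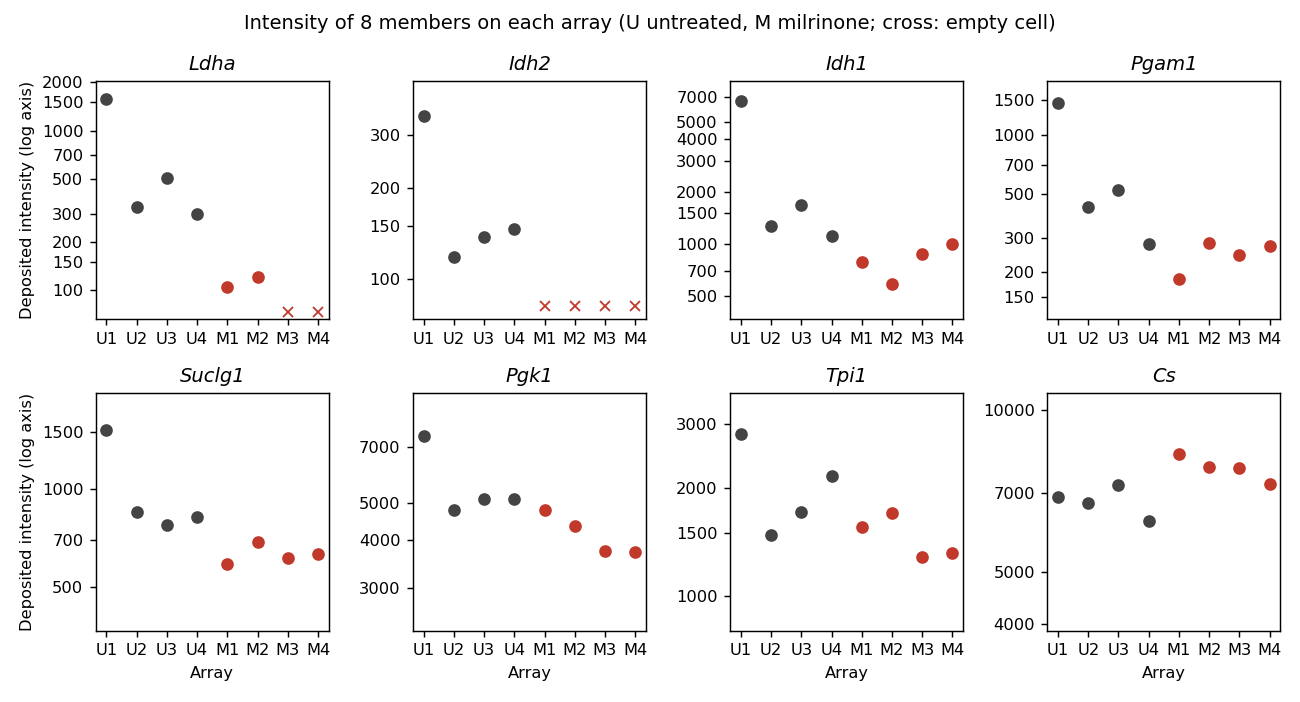
Deposited intensity (log axis, scaled for each gene) of 8 members on the 4 untreated (U, grey) and 4 milrinone (M, red) arrays, with a cross where the cell is empty and its height carries no value. Ldha and Idh2 are listed on all untreated arrays and on 2 and 0 milrinone arrays, and Cs is the panel in which milrinone lies above untreated.

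The lactate dehydrogenase genes differed from each other in how often they were listed. Ldha had 1569, 334, 505 and 301 on untreated 1 to 4, 106 and 122 on milrinone 1 and 2, and no value on milrinone 3 and 4. Every listed milrinone value lay below every untreated value. With 2 milrinone values Ldha could not be tested, and an empty cell cannot be read as a bound. Of 58 member probe sets listed on all 4 untreated arrays, 2 were listed on at most 2 milrinone arrays, those of Ldha and Idh2, against 5.33% of all such probe sets. In the other direction, 0 of 57 listed on all 4 milrinone arrays were listed on at most 2 untreated arrays, against 1.66%. The upstream stretch printed for Ldha held 3 ACGTG sites and that of Ldhb none, and no measurement here bears on their use.

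Ldhb was bright on every array. Its brightest probe set had 21393, 22880, 22706 and 20909 in untreated and 21472, 22764, 21691 and 22170 in milrinone samples, with the groups fully mixed. The difference was 0.00 (-0.10 to 0.11), and its other 3 probe sets differed by 0.00, 0.01 and 0.04. The highest value of any probe set on an array was 23742 to 24974, so these signals lay near the top of the scale and the narrow interval does not show a stable level. A dimmer probe set of Ldhb, at 14312 to 15885, was farther from that limit, and its interval was -0.06 to 0.15.

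The pyruvate dehydrogenase genes showed no common direction. Pdha1, the E1 alpha subunit that starts the reaction, had 1773, 3135, 2959 and 1410 in untreated and 2515, 3528, 2808 and 3017 in milrinone samples. Untreated 1 and 4 were low, and untreated 2 and 3 lay within the milrinone range. The difference was 0.42 (-0.11 to 0.96, limma adjusted p = 0.564), and 0.49 by its second probe set. The E1 beta gene Pdhb differed by -0.07 (-0.35 to 0.21). Dlat, the E2 acetyltransferase, differed by 0.04 (-0.24 to 0.33), and Dld, the E3 subunit shared with other dehydrogenase complexes, by -0.18 (-0.52 to 0.16).

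The log2 ratio of Pdha1 to Pdhb was -0.30, 0.51, 0.53 and -0.20 in untreated and 0.43 to 0.74 in milrinone samples. Untreated 1 and 4 were below all other arrays, and untreated 2 and 3 lay within the milrinone range. Pdk1, a kinase that switches the complex off, had 154, 203, 169 and 77.6 in untreated and 97.0 to 243 in milrinone samples. Its difference was 0.05 (-0.68 to 0.78). A dimmer probe set of Pdk1 differed by -0.37, with 64.5 to 74.8 in untreated and 37.0 to 58.1 in milrinone samples where listed, without overlap. A brighter one had too few values to be tested. It was listed at 421, 576 and 495 on untreated 1 to 3 and at 542 and 465 on milrinone 1 and 4.

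Pyruvate carboxylase, encoded by Pcx, refills the TCA cycle with oxaloacetate. Pcx had 641, 571, 312 and 204 in untreated and 245 to 417 in milrinone samples, with a difference of -0.34 (-1.07 to 0.39). The 3′ control probe set for the same gene, which was left out of the fit, had 527, 423, 285 and 257 and then 261 to 367, the same order of the untreated arrays. Its 5′ control probe set was listed on milrinone 2, 3 and 4 at 119, 114 and 113 and on no untreated array.

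Citrate synthase, which condenses acetyl-CoA with oxaloacetate, was the only member higher on all milrinone than on all untreated arrays. Cs had 6875, 6721, 7261 and 6222 in untreated and 8277, 7827, 7810 and 7268 in milrinone samples, and untreated 3 all but reached milrinone 4. Such a pattern held for 5.17% of tested genes. The difference was 0.20 (SE 0.07, limma adjusted p = 0.480), and 0.21 without untreated 1. Its other probe sets differed by 0.13 and 0.02 and their groups overlapped. Aco1, the cytosolic aconitase that also binds iron-responsive RNA elements, differed by 0.03, and its other probe sets by -0.22 and 0.18.

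Members with all milrinone arrays below all untreated arrays were Idh1 and Suclg1, 2 of 30, against 2.89% of tested genes. Idh1, the cytosolic NADP-dependent isocitrate dehydrogenase, had 6653, 1264, 1678 and 1115 in untreated and 790, 591, 879 and 1001 in milrinone samples. Untreated 1 was several times above every other array, and the gap between untreated 4 and milrinone 4 was small. The difference was -1.30 (SE 0.47, limma adjusted p = 0.480), and -0.72 without untreated 1 (SE 0.20, adjusted p = 0.387). A second probe set had 905, 167, 197 and 161 in untreated and 75.3, 48.3, 108 and 163 in milrinone samples, so there milrinone 4 reached the untreated range.

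Idh2, the mitochondrial NADP-dependent enzyme, was listed at 347, 118, 138 and 147 on the untreated arrays and on no milrinone array by its brighter probe set. Listing on all 4 untreated and 0 milrinone arrays was seen for 1.33% of probe sets listed on all untreated arrays. A dimmer probe set of Idh2 was listed at 45.9 on untreated 3 and at 51.0 and 49.4 on milrinone 1 and 2, so the 2 probe sets did not follow the same pattern. The subunits of the NAD-dependent mitochondrial enzyme, which serves the cycle itself, differed by -0.04 for Idh3a, -0.39 for Idh3b and -0.26 for Idh3g. Idh3b reached 1482 on untreated 1, while untreated 2 to 4 gave 614 to 743 and the milrinone samples 615 to 685. Without untreated 1 the values were -0.09, -0.12 and -0.05.

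Ogdh and Dlst, subunits of the alpha-ketoglutarate dehydrogenase complex, differed by -0.27 (-0.66 to 0.12) and -0.02 (-0.27 to 0.22). Succinyl-CoA synthetase joins a shared alpha subunit, Suclg1, to a GTP-linked or an ATP-linked beta subunit, Suclg2 or Sucla2. Suclg1 had 1519, 848, 774 and 820 in untreated and 588, 687, 613 and 630 in milrinone samples, with every milrinone array below every untreated array. The difference was -0.58 (SE 0.21, limma adjusted p = 0.475), and -0.36 without untreated 1 (SE 0.12, adjusted p = 0.508). Suclg2 differed by -0.04, and by 0.12 without untreated 1, an array with 1425 where untreated 2 to 4 gave 863 to 950. Sucla2 had 3722, 5259, 5463 and 4182 in untreated and 4896 to 5478 in milrinone samples, a difference of 0.19 (-0.08 to 0.47). Untreated 1 and 4 were the lowest arrays for Sucla2, while untreated 1 was the highest for both other subunits.

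Fh1, which encodes fumarase, had 5446 to 5764 in untreated and 5227 to 6008 in milrinone samples, with a difference of 0.03 (-0.13 to 0.19). Malate dehydrogenase acts in the cytosol as Mdh1 and in mitochondria as Mdh2. Mdh1 had 6433, 4584, 4565 and 3873 in untreated and 3838, 4510, 3774 and 3550 in milrinone samples. Only untreated 1 was clear of the milrinone range by a wide margin, and the difference was -0.29 (-0.62 to 0.03, limma adjusted p = 0.532). Without untreated 1 it was -0.15, and the other tested probe sets of Mdh1 differed by -0.05 and -0.03 over all arrays. Mdh2 differed by -0.04 (-0.23 to 0.16), and its second probe set by -0.19 (unadjusted p = 0.0371, limma adjusted p = 0.497).

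**Figure D3:**
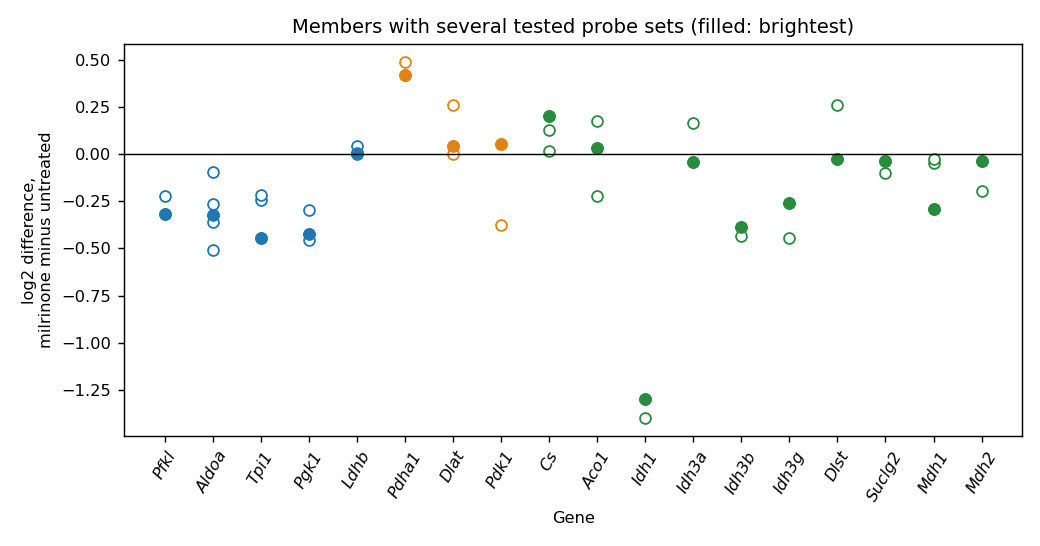
Log2 difference, milrinone minus untreated, of each tested probe set of the 18 members with more than 1 (filled, brightest; open, others; blue, glycolysis; orange, pyruvate; green, TCA cycle). All probe sets of 14 genes lie on 1 side of 0, and those of Pdk1, Aco1, Idh3a and Dlst lie on both sides.

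Probe sets of the same gene gave a partial check. Of 18 members with several tested probe sets, 14 had all of them on 1 side of 0, and they share the same RNA and arrays. The share over all genes with several tested probe sets was not computed. Without untreated 1, the probe sets of Aldoa, Ldhb, Cs, Suclg2, Mdh1 and Mdh2, all among those 14, lay on both sides of 0. In 11 members, Aldoa, Tpi1, Pgk1, Ldhb, Dlat, Aco1, Idh1, Idh3a, Idh3b, Suclg2 and Mdh1, tested probe sets include designs marked as shared by several transcripts or open to cross-hybridisation. Their signals can include related sequences, and in 7 of these members the brightest probe set is of that kind. Of the 59 tested member probe sets, 0 passed at an adjusted p under 0.05 (limma), against 0.117% of all 16288. At an unadjusted p under 0.05, 9 were lower, against 4% of all tested probe sets, and 1 was higher, against 5.62%. The probe sets of Idh1 differed by -1.30 and -1.40, those of Pgk1 by -0.29 to -0.45 and those of Idh3b by -0.39 and -0.43.

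Glycolysis was compared with the pyruvate and TCA genes on each array, as the median log2 deviation of a group's genes from their own means over the 8 arrays. This is a description with no test, over tested genes listed on all 8 arrays. Hk1, Aldoc, Eno2 and Ldha of glycolysis and Idh2 of the TCA genes were untested and are left out. Of these, Ldha, Aldoc and Eno2, and Idh2 by its brighter probe set, were listed on fewer milrinone than untreated arrays. For 10 glycolytic genes the deviation was 0.52, 0.03, 0.06 and -0.07 on untreated 1 to 4 and -0.01, 0.00, -0.26 and -0.31 on milrinone 1 to 4. Untreated 1 was high, and milrinone 3 and 4 were low. For 14 TCA genes, with the cytosolic Aco1, Idh1 and Mdh1 among them, it was 0.26, 0.04, 0.03 and -0.18 in untreated samples. In milrinone samples it was -0.09 to -0.04. For 6 pyruvate genes it was -0.02, 0.28, 0.06 and -0.50 in untreated and -0.06 to 0.08 in milrinone samples, and the milrinone arrays lay inside the untreated range.

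Milrinone minus untreated, the group deviation was -0.28 for glycolysis, 0.05 for the pyruvate genes and -0.10 for the TCA genes, beside 0.08 for all tested genes listed on 8 arrays. Without untreated 1 the values were -0.11 for glycolysis, 0.0275 for pyruvate and -0.056 for TCA genes. Without untreated 4 they were -0.36, -0.0993 and -0.17, so the pyruvate value turned in sign. Glycolysis minus pyruvate and TCA together was 0.40, -0.08, 0.00 and 0.12 in untreated (mean 0.11 ± 0.21, SD, n = 4) and 0.05, 0.04, -0.20 and -0.23 in milrinone samples (mean -0.09 ± 0.15, SD, n = 4). The groups overlapped. The difference of -0.20 was less than the SD of single untreated arrays, which is not the standard error of a difference between means. That difference was -0.0435 without untreated 1. All tested genes had their lowest deviation on untreated 1, at -0.15, the array where glycolytic genes were highest.

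**Figure D4:**
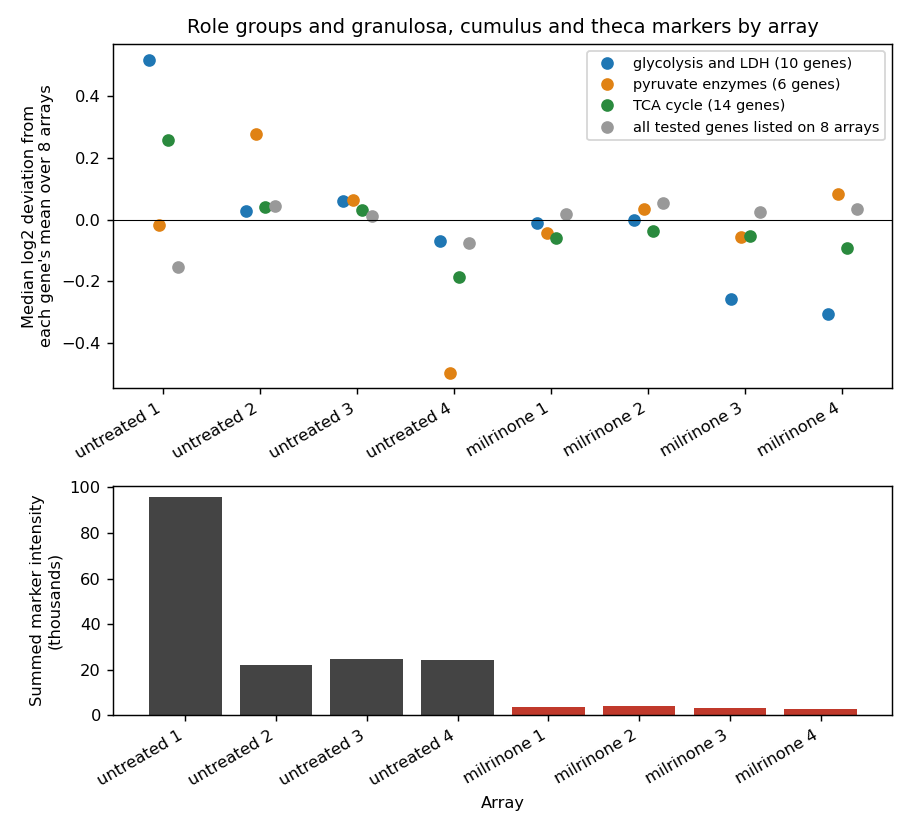
Upper panel, median log2 deviation of each role group from its genes' means over 8 arrays, with all tested genes in grey. Lower panel, summed intensity of granulosa, cumulus and theca markers. Untreated 1 has the highest glycolytic deviation, 0.52, and the highest marker sum, 95932.

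Other genes of these pathways were taken from a list of 53, of which 28 were tested. Of these 0 passed in either direction (limma), 0 had an unadjusted p under 0.05, against 9.85% of all tested genes, and the median difference was -0.05. The smallest p belonged to Pgls, of the pentose phosphate pathway, at -0.66 (-0.28 without untreated 1), Pklr, the liver pyruvate kinase, at 0.27, Ldhc, the testis lactate dehydrogenase, at -0.88, and Ldhd, which acts on D-lactate, at 0.23. Their adjusted p ran from 0.532 to 0.561. Pklr, Ldhd and Me2 were higher on all milrinone than on all untreated arrays that listed them, 3 of 28 against 5.17% of all tested genes, and 0 were lower on all, against 2.89%. Gapdh, the enzyme between Tpi1 and Pgk1, was looked at after its values were seen. Its own symbol stood only on 3 control probe sets, which were outside the fit. The 3′ control had 8110, 3155, 4037 and 2736 in untreated and 2144, 2675, 1412 and 1676 in milrinone samples, and the groups did not overlap. A probe set in the fit, annotated to Gapdh together with pseudogenes, had 14441, 7063, 8359 and 5644 in untreated and 4330, 5316, 3113 and 3514 in milrinone samples, without overlap. This probe set differed by -1.06 (SE 0.26, limma adjusted p = 0.334), and by -0.80 without untreated 1.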

How the data were processed

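Total RNA of 4 untreated and 4 milrinone samples was measured on 8 arrays. Values are the intensity of each probe set on a linear scale as deposited by the authors, and for the software, scaling and rule for empty cells the labels and headers give no detail. From 48.4% to 58.7% of an array's cells were empty, and these were left out of the fit. The number of arrays limits precision, and the median SE over members was 0.17.

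Symbols from the platform annotation were updated through Entrez identifiers to RefSeq, which matched 34741 of 34945 probe sets with 1 symbol, while 932 had several and 9160 none. The 64 control probe sets were left out. A probe set needed values on 3 or more of the 4 arrays per group, which 16288 met, and these were tested on log2(intensity + 16), in the deposited scaling, by the two-sided moderated test of limma 3.58.1 (trended prior variance, R 4.3.3) and Benjamini-Hochberg adjustment over all of them, at 0.05. Python 3.11.15 and matplotlib 3.10.9 were used. The members, lists and tests were chosen with earlier results of these data known.

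All members are named. Array values are given for members without overlap between groups, the 8 with the smallest p, and Ldha, Ldhb, Hk1, Pfkp and Pdha1, by rule. Of the other pathway genes the 4 with the smallest p are named. Further array values, the Gapdh probe sets, Me2 and the Pcx control probe sets were added after they were seen.

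The same test, run on simulated arrays of 16288 probe sets with 200 changed, recovered 66% of those changed 2-fold and 97% of those changed 4-fold, with 4 false among 167 calls. Those shares belong to the simulation and are not the recovery rate for the measured arrays. On the measured arrays 19 probe sets passed. Idh1 and Pgam1 did not pass there, with differences of -1.30 and -1.13 and a limma adjusted p of 0.480 for each. Alternatives were other pseudocounts, scalings, listing rules and weights, a replicate block and leaving out each array.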

Additional observations from a re-analysis of the deposited data

Results flagged for a closer look

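In 4 groups of 4 arrays a single array stood far from the others on the log2(intensity + 16) scale. Its gap to the nearest array took a share of the whole range above Dixon's 95% critical value. Chance gives about 1 in 20, or 3.5 of the 70 groups examined. For Pgk1 in untreated samples the share was 0.842 and for Suclg1 in untreated samples it was 0.865, both with untreated 1 highest. For Pdhb and Idh3b in milrinone samples the shares were 0.873 and 0.875, both with milrinone 2 highest. Pdhb had intensities of 1859, 2105, 1847 and 1826 on milrinone 1 to 4, and Idh3b had 615, 685, 623 and 616. The intensities of Pgk1 and Suclg1 are given above.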

How the results depend on the processing

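Under all 20 alternatives 0 members passed, and the lowest adjusted p of a member (limma) ran from 0.135 with array weights to 0.780. The count of all tested probe sets passing was 19, and became 93 with array weights, 53 with ribosomal centring, 5 with empty cells at 0, 12 with probe sets listed on all 8 arrays, and 9 (without milrinone 3) to 69 (without untreated 1) when an array was left out. Same-numbered arrays did not deviate together (correlations -0.27 to 0.03), and a replicate block gave 13 probe sets and 0 members. When an array was left out, the glycolysis deviation ran from -0.36 to -0.11, the pyruvate deviation from -0.0993 to 0.14, and glycolysis minus pyruvate and TCA from -0.26 to -0.0435. The pyruvate deviation of 0.05 was 0.22 with ribosomal centring and -0.14 with quantile normalization. The TCA deviation of -0.10 became 0.0716 with ribosomal centring, -0.25 with quantile normalization and -0.17 to -0.06 when an array was left out. The median difference over every probe set in the fit was 0.06, and 0.23 once centred on ribosomal protein genes. Of 600 single-member values 44 changed sign, in 14 members, none with an unadjusted p under 0.05 by its brightest probe set in the deposited scaling with all arrays. Of the 44, 11 came from a centring, which moves every gene on an array by the same amount, and 33, in 11 members, from other alternatives. With array weights these were Hk2 0.20, Ldhb -0.037, Dlat -0.0004, Pdk1 -0.26, Aco1 -0.0086, Suclg2 0.08 and Mdh2 0.053. With ribosomal centring they were Hk2 0.0426, Pfkm 0.16, Pfkp 0.0188, Pkm 0.0112, Pdhb 0.10, Idh3a 0.13, Dlst 0.14, Suclg2 0.13 and Mdh2 0.13. Median centring gave Ldhb -0.0252 and Fh1 -0.0027, and quantile normalization Dlat -0.18, Pdk1 -0.18, Aco1 -0.14 and Fh1 -0.0501. The median over probe sets, taken on each array over those listed there, gave Pdk1 -0.19, Aco1 -0.18, Idh3a 0.0626 and Dlst 0.12. For Pdk1 a dim probe set was empty on untreated 3 and milrinone 2, and for Aco1 on untreated 1 and milrinone 3. Those arrays were therefore summarised over fewer probe sets. With an array left out the ranges were -0.32 to 0.0846 for Hk2, -0.075 to 0.10 for Pfkm, -0.0194 to 0.0239 for Ldhb, -0.0106 to 0.10 for Dlat, -0.20 to 0.23 for Pdk1, -0.0415 to 0.0766 for Aco1, -0.0873 to 0.0221 for Idh3a, -0.0921 to 0.052 for Dlst, -0.11 to 0.12 for Suclg2 and -0.10 to 0.0246 for Mdh2. The cause was not tested. Empty cells and signals near the top of the scale limit Ldha, Idh2 and Ldhb most.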
